A study of Mus musculus with 22 samples.

Results

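The hnRNP and SR splicing factors were examined in whole mouse spinal cord, as all protein-coding genes in the count table whose symbol starts with Hnrnp or with Srsf and a digit. This rule gave 31 of 21995 genes, 20 hnRNP genes and 11 SR genes, and it used no measured value. The series held 22 libraries, 1 per mouse, from mice of strain C57BL/6 in 4 groups. For aging, 8 wild-type male mice at 3–4 months (young) were set against 8 wild-type male mice at 18–24 months (old), with libraries from the Roche KAPA HyperPrep kit. For amyotrophic lateral sclerosis (ALS), 3 mice of genotype G93a were set against 3 wild-type control mice, all at 5–6 months in the labels, with 2 females and 1 male in each group and libraries from the Illumina TruSeq kit. The G93a mice, called SOD1-G93A below, carry a high-copy human SOD1 transgene under the human promoter. Differential expression in each comparison was tested with edgeR's quasi-likelihood test, and a gene was called when its p-value, adjusted by Benjamini-Hochberg over all genes tested, was under 0.05.

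Heterogeneous nuclear ribonucleoproteins (hnRNPs) coat nascent transcripts in the nucleus, and many of them repress splice sites, hold back exons and accompany the mRNA to the cytoplasm. SR proteins carry stretches rich in arginine and serine, bind exonic enhancers and help the spliceosome to define exons, so that the balance between both families sets many alternative splicing choices. Several members limit their own amount by splicing a premature stop codon into their mRNA, which is then destroyed by nonsense-mediated decay. In motor neuron disease the families are known because HNRNPA1 and HNRNPA2B1 carry rare pathogenic mutations and because TDP-43, the protein that aggregates in most human ALS, is an hnRNP-like protein.

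Library totals ran from 5078092 to 9358055 counts in young mice, 5664869 to 9145600 in old mice, 10693060 to 13219797 in controls and 9675610 to 11872431 in SOD1-G93A mice. The tissue matched its label, since markers of neurons, astrocytes and oligodendrocytes were high and those of skeletal muscle summed to at most 4.17 CPM in any library (CPM, read counts divided by the scaled size of the library). Sod1, the mouse gene, rose from a mean of 160 to 310 CPM in SOD1-G93A mice (log2 fold change 0.95, SE 0.09, edgeR adjusted p 0.000241), and whether reads of the human transgene were counted on it was not tested. Microglial and macrophage markers moved strongly in both comparisons, with median log2 fold changes of 1.08 in aging and 2.19 in ALS. The medians were smaller in aging than in ALS for neurons (-0.16 and -0.78), motor neurons (-0.07 and -0.98) and astrocytes (0.17 and 0.62). The summed level of 10 microglial and macrophage markers ran from 364 to 405 CPM in young, 604 to 991 in old, 373 to 455 in control and 1473 to 2820 in SOD1-G93A libraries, and that of 10 neuronal markers from 7882 to 9022, 6637 to 8944, 9113 to 9671 and 3604 to 6070. 1 library in each diseased or aged group stood apart. The old library with the lowest microglial sum, 604 CPM, had the highest neuronal sum of its group, and the SOD1-G93A library with the lowest microglial sum, 1473 CPM, likewise had the highest neuronal sum of its own. These 2 are called the low-microglia old library and the low-microglia SOD1-G93A library below. The summed level of 7 astrocyte markers ran from 6416 to 7079 CPM in young, 7454 to 8226 in old, 6034 to 6636 in control and 11581 to 18060 in SOD1-G93A libraries, and was lowest in its group in both low-microglia libraries. That of 8 motor neuron markers ran from 263 to 316 CPM in young, 251 to 314 in old, 287 to 322 in control and 141 to 156 in SOD1-G93A libraries, and did not set these 2 apart, at 269 and 143 CPM. Summed over 4 markers, oligodendrocyte precursors ran from 160 to 184 CPM in young and 122 to 159 in old libraries. In control and SOD1-G93A libraries they ran from 152 to 192 and from 211 to 325 CPM. The sum of 6 endothelial markers ran from 247 to 269 CPM in young and 213 to 245 in old libraries. In control and SOD1-G93A libraries it ran from 245 to 272 and from 225 to 249 CPM. The part that shifts in cell types play in the results was not tested, and in whole cord fewer cells of a type and less RNA per cell cannot be told apart.

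All 31 members were well measured, with no fewer than 63 counts for Srsf12 and 103 for any other member in every library, and all passed the filter on low counts in both comparisons. Between genes, levels were compared as FPKM, which scales fragments by transcript length. In young mice the median member stood at the 93.5th percentile of protein-coding genes, and 21 members were above the 90th. Hnrnpa2b1, an A/B type protein that packages nascent mRNA and carries RNAs into neuronal processes, led at 232 ± 14 FPKM (SD, n = 8), ahead of the poly(C)-binding Hnrnpk at 209 ± 14.6 FPKM. The values of both overlapped, so their order was not fixed. The scaffold protein gene Hnrnpu followed at 128 ± 5.3 FPKM, above Srsf5 at 112 ± 7.9 FPKM and Hnrnph1 at 108 ± 15.8 FPKM, which did not differ beyond their spread. At the other end, Srsf9 stood at 20.03 ± 3.34 FPKM, Hnrnpll, a regulator of exon choice in lymphocytes, at 15.4 ± 1.0 FPKM and Srsf12, a divergent SR protein gene, at 6.69 ± 0.84 FPKM. The lowest 2 were the same genes in old, control and SOD1-G93A mice, and Srsf12 at 4.97 ± 1.19 FPKM (n = 3) was lowest in SOD1-G93A mice. Levels were not tested across the aging and the ALS libraries, since kit and experiment coincided.

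**Figure D1:**
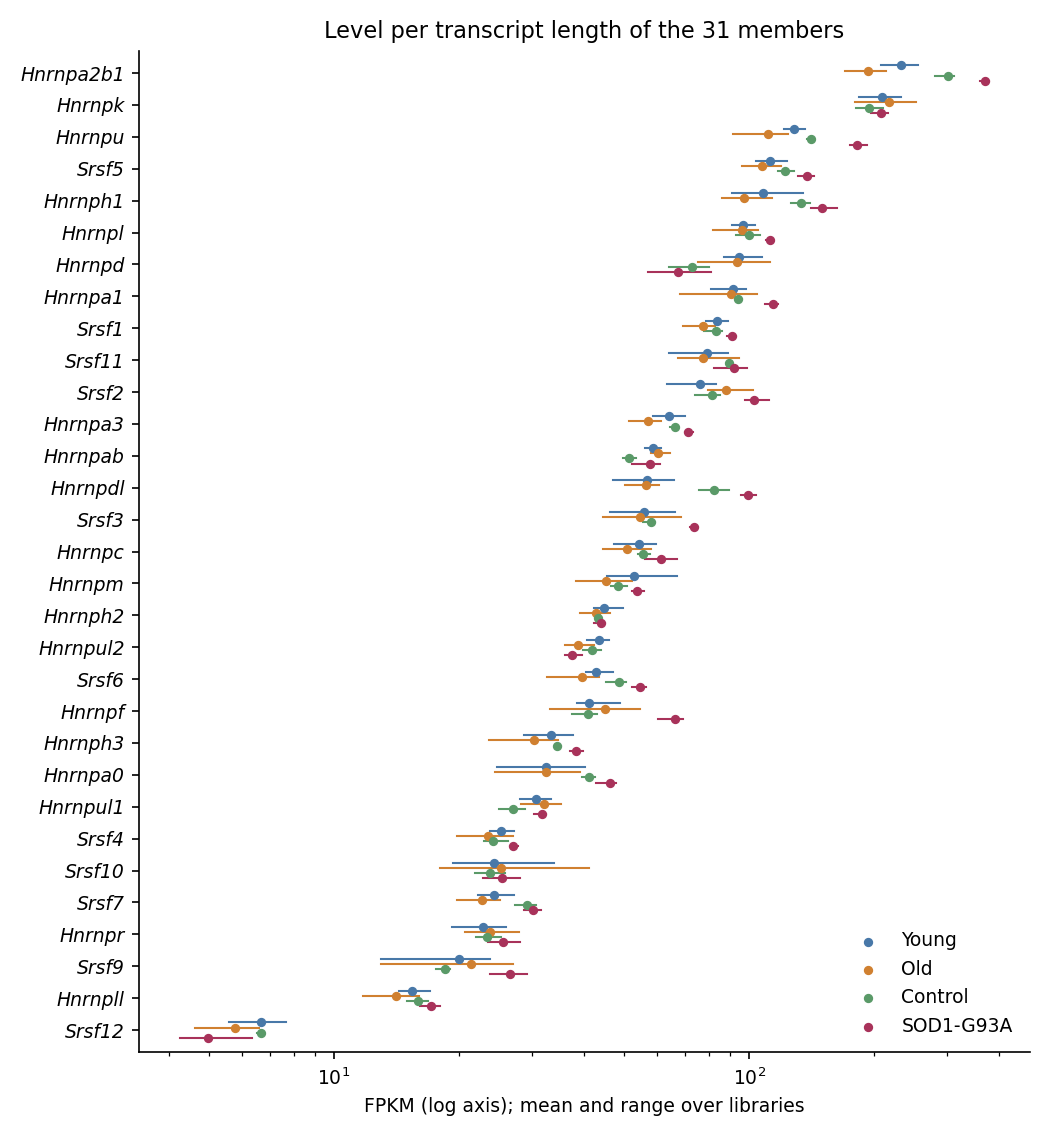
Level of each of the 31 members in FPKM on a log axis, with points for the group mean and lines from the lowest to the highest library (n = 8 young, 8 old, 3 control and 3 SOD1-G93A). Members are ordered by their young mean, from 232 FPKM for Hnrnpa2b1 to 6.69 FPKM for Srsf12.

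The annotation showed how complex these genes are. Members had a median of 7 annotated transcripts, against 4 for all protein-coding genes, and 19 of 31 (61.3%), 9 SR and 10 hnRNP genes, had at least 1 transcript annotated as a target of nonsense-mediated decay, against 20.8% of protein-coding genes. Of the members, 29 had an entry among the RefSeq promoters of build GRCm38.p6 and Hnrnpll and Hnrnpul2 did not. In the 250 bases before the annotated starts, the GC box GGGCGG occurred on either strand in 24 of 29 members (82.8%), against 64.1% of genes tested in aging and 35.4% of all genes in the promoter table. The CCAAT box was found in 16 members (55.2%, against 40.3% of tested genes and 37.5% of all), the ETS core CCGGAAG in 6 (20.7%, against 14.7% and 7.83%), the E box CACGTG in 3 (10.3%, against 9.8% and 6.86%), the TATA box TATAAA in 3 (10.3%, against 7.67% and 14.3%), and the element CTCGCGAG in 1, Srsf4 (3.45%, against 1.64% and 0.862%). The median GC content of the member promoters was 68%, against 60.0% for genes tested in aging. These motifs were chosen with the results known, and a match is a description of the letters only. The stretches before the most upstream starts of 4 members are shown because these members had the smallest adjusted p-values of their family in one of the comparisons, among those for which such a stretch outside protein-coding exons could be read. Sequences run 5′ to 3′ on the gene's strand, with matches to the motifs above in capitals.
Hnrnph1 (chr11:50376740-50376989, plus strand): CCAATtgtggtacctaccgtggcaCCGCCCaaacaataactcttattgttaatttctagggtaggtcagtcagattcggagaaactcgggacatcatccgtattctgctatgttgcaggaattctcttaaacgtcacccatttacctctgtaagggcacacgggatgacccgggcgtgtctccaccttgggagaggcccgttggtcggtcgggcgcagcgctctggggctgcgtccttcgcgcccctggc
Srsf1 (chr11:88047123-88047372, plus strand): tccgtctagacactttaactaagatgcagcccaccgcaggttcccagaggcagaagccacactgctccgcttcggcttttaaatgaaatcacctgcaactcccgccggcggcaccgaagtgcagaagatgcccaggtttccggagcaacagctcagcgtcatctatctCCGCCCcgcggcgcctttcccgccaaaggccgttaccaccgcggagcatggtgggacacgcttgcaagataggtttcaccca
Hnrnpf (chr6:117900090-117900323, plus strand): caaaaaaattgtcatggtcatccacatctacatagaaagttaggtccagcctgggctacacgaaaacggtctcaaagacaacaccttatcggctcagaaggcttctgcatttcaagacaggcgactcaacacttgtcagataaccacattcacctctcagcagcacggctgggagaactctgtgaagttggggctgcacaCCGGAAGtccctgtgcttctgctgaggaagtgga
Srsf5 (chr12:80945249-80945498, plus strand): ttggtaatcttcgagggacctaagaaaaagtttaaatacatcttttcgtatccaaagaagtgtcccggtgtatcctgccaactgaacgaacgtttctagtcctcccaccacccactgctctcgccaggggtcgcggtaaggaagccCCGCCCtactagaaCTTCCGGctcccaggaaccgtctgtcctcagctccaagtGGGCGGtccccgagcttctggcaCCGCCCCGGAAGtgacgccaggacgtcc
The capitals in Hnrnph1 are a CCAAT box and a GC box on the other strand. Srsf1 held 1 GC box and Hnrnpf 1 ETS core. Srsf5 held 5 matches, 3 GC boxes and 2 ETS cores, and its last GC box and last ETS core share a base.

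To ask how the splicing factors change with age, old mice were compared with young mice. Across both families, 7 genes fell modestly and none rose. Of the 20 hnRNP genes, 6 were lower in old mice (Hnrnph1, Hnrnpu, Hnrnpa2b1, Hnrnpul2, Hnrnpm and Hnrnpa3), and of the 11 SR genes only Srsf1 was. On the linear scale Srsf1 fell by 9.73%, the least of the 7, and Hnrnpm fell by 15.9%, the most. The count of 7 of 31 compares with 12.9% of all 13647 genes tested that were lower, and the count of 0 higher with 13.5%. At an unadjusted p under 0.05, 10 members were lower and 1 was higher, against 18.7% and 18.9% of all genes. No member passed the fold threshold of the study, an absolute log2 fold change over 1 with an adjusted p under 0.05, which 2.22% of genes did. The median log2 fold change was -0.09 over the 31 members, -0.07 for hnRNP and -0.10 for SR genes, against -0.0027 over all genes, and 22 members lay below 0.

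**Figure D2:**
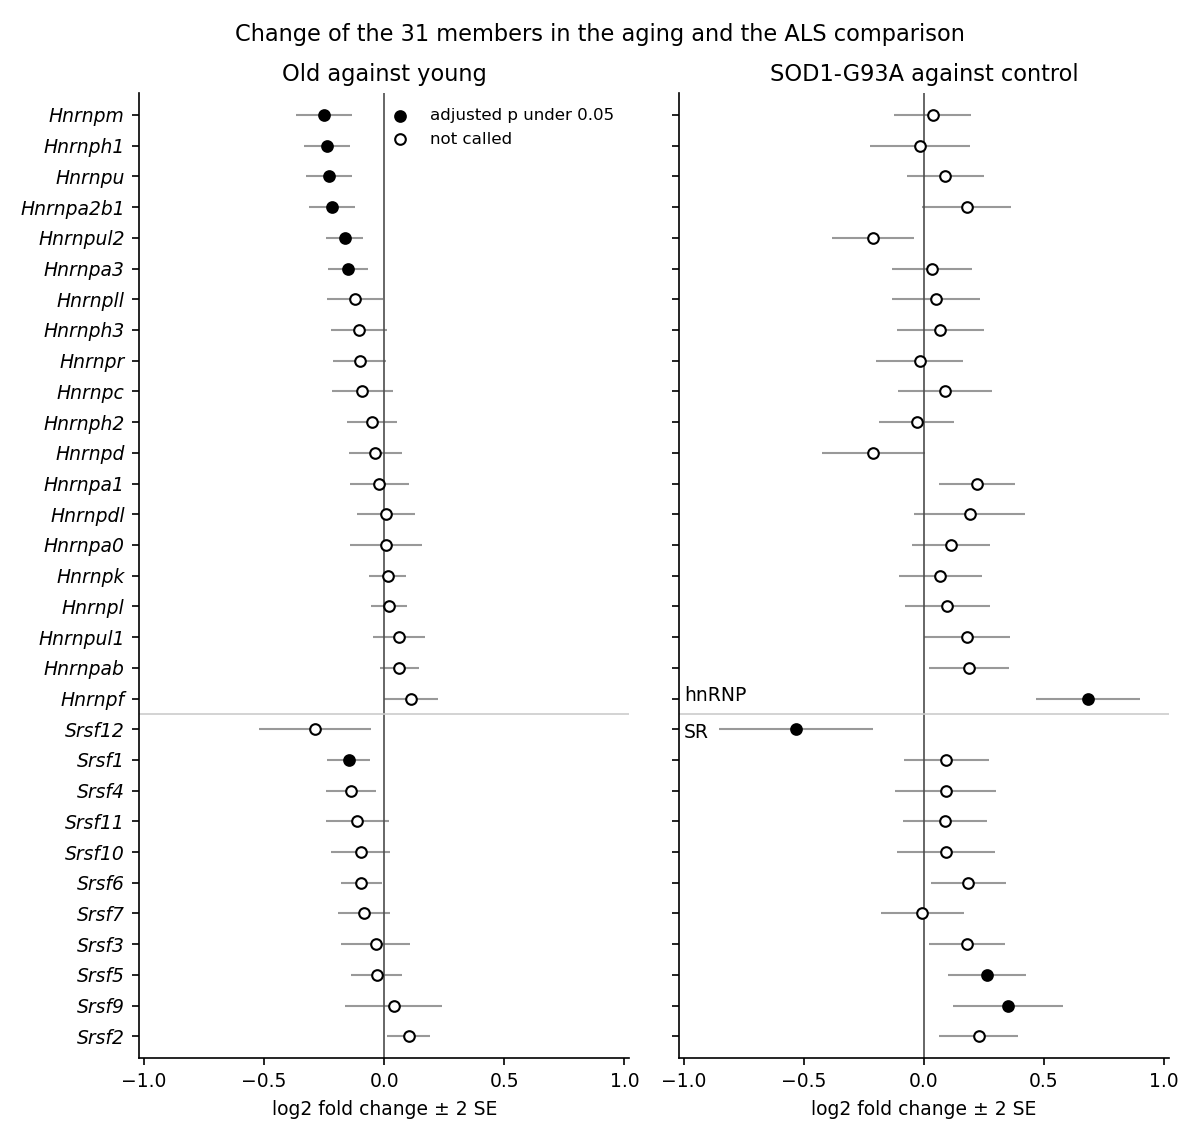
Log2 fold change of the 31 members with bars of 2 standard errors, old against young mice (left, 8 and 8 libraries) and SOD1-G93A against control mice (right, 3 and 3 libraries), with filled points for an edgeR adjusted p under 0.05. In aging 22 members lie left of 0 and 7 are filled, and in ALS 24 lie right of 0 and 4 are filled.

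Among the H/F proteins, which bind G-rich runs, Hnrnph1 (chr11:50376990-50386528 on GRCm38) ran from 163 to 193 CPM with a median of 180 in young libraries and from 130 to 169 CPM with a median of 152 in old libraries. 7 of 8 old libraries were below every young one, and the highest old value belonged to the low-microglia old library. The same held for Hnrnpu, but for Hnrnpa2b1, Hnrnpa3, Hnrnpul2, Hnrnpm and Srsf1 another old library was highest. Hnrnph1 fell by 0.24 on the log2 scale (SE 0.05, edgeR adjusted p 0.000765). Its relatives did not pass, with log2 fold changes of 0.11 for Hnrnpf, -0.05 for Hnrnph2 and -0.10 for Hnrnph3.

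In the U family, Hnrnpu (chr1:178321108-178337797), which organizes chromatin and pre-mRNA at the nuclear scaffold, ran from 314 to 367 CPM with a median of 344 in young mice and from 258 to 316 CPM with a median of 294 in old mice. 6 old libraries were below every young library. The fall was 0.23 on the log2 scale (log2 fold change -0.23, SE 0.05, edgeR adjusted p 0.000966). Hnrnpul2 (chr19:8820010-8834143), a related protein that takes part in DNA end resection, had young values from 246.3 to 283 CPM with a median of 264 and old values from 226.7 to 245.6 CPM with a median of 238. It was the single member whose groups did not overlap, as every old library was below every young one, which 1.66% of tested genes showed. Its log2 fold change was -0.17 (SE 0.04, edgeR adjusted p 0.00235). Hnrnpul1 was not called, at 0.06.

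The A/B proteins antagonize SR proteins at splice sites. Hnrnpa2b1 (chr6:51460932-51469894) ran from 301 to 347 CPM with a median of 324 in young mice and from 257 to 319 CPM with a median of 275 in old mice. 7 old libraries were below every young library, and the log2 fold change was -0.22 (SE 0.05, edgeR adjusted p 0.00138). Hnrnpa3 (chr2:75659261-75669407), a close relative, ran from 222 to 249 CPM with a median of 227 and from 190 to 232 CPM with a median of 207. 7 old libraries were again below the young range, with 1 old library inside it (log2 fold change -0.15, SE 0.04, edgeR adjusted p 0.0105). Hnrnpa1 at -0.02, Hnrnpa0 at 0.0076 and Hnrnpab at 0.06 were not called. The annotation names 2 pseudogenes after a copy of Hnrnpa1, so reads of that gene could have been shared out among copies. Hnrnpm (chr17:33646233-33686860), which binds GU-rich intronic sequence, ran from 77.7 to 98.7 CPM with a median of 89.3 in young and from 65.5 to 83.1 CPM with a median of 76.5 in old mice. 5 old libraries were below every young one (log2 fold change -0.25, SE 0.06, edgeR adjusted p 0.00253).

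Among SR genes, Srsf1 (chr11:88047373-88053755), the prototype of the family, ran from 149 to 173 CPM with a median of 163 in young mice and from 137 to 161 CPM with a median of 147 in old mice. 4 old libraries were below the young range (log2 fold change -0.15, SE 0.04, edgeR adjusted p 0.0161). Srsf4 lay just outside the threshold, from 53.6 to 63.0 CPM in young and from 47.1 to 56.4 CPM in old mice (log2 fold change -0.14, SE 0.05, edgeR adjusted p 0.0504). It was called lower with DESeq2, with 1 other scaling and in 6 of the 16 fits with a library left out. Srsf12 had the most negative estimate, -0.29, but also the widest error of the members that were not called (SE 0.12, edgeR adjusted p 0.0731). Its young values ran from 12.7 to 17.3 CPM, and 7 of 8 old values lay between 9.27 and 13.2 CPM while the low-microglia old library stood at 18.0 CPM. Without that library Srsf12 was lower (log2 fold change -0.39, edgeR adjusted p 0.00452). Srsf6 was at -0.10 (edgeR adjusted p 0.102), and Srsf2, which acts at exonic enhancers, was the member closest to a rise, at 0.10 (SE 0.05, edgeR adjusted p 0.0998). Srsf3 at -0.04, Srsf5 at -0.03 and Srsf9 at 0.04 were not called.

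**Figure D3:**
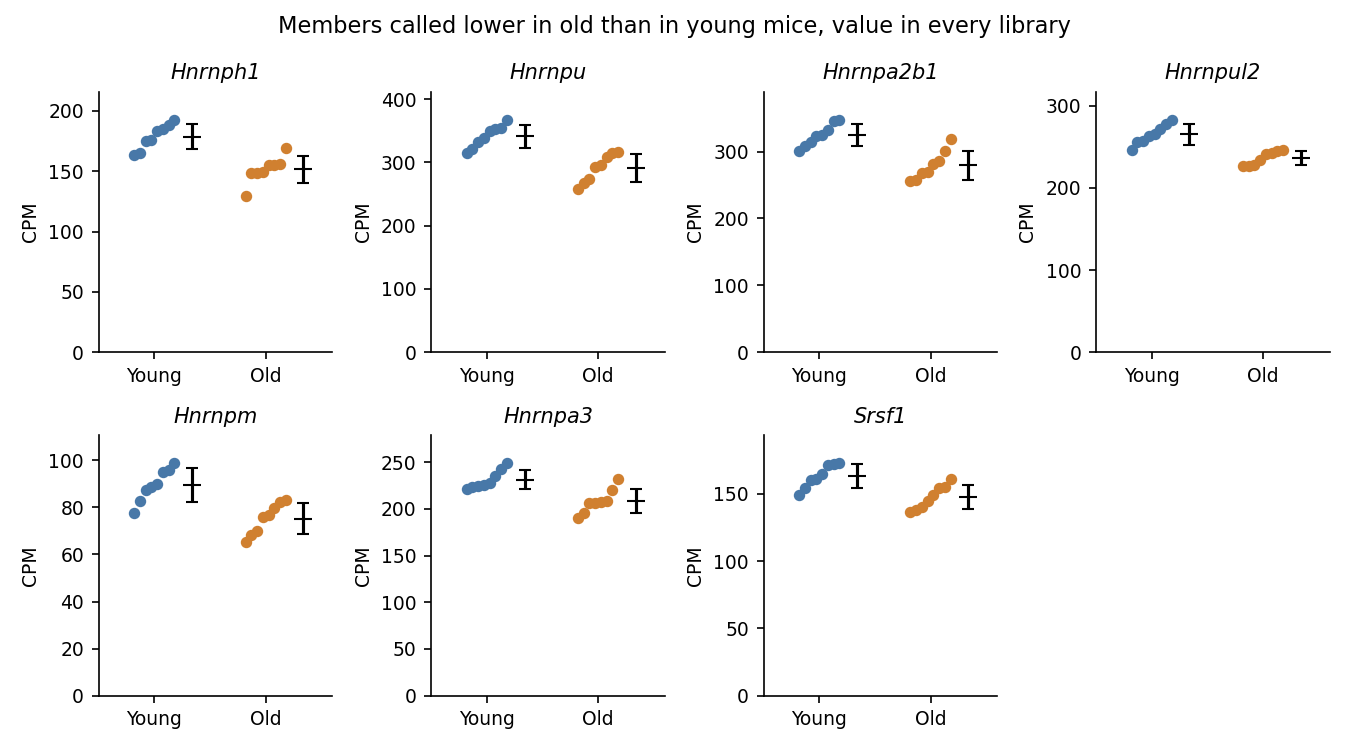
CPM in every library of the 7 members called lower in old mice, in young (n = 8) and old (n = 8) mice, with points sorted by value and bars for the mean ± SD. Hnrnpul2 alone has no overlap between the groups, with the highest old value at 245.6 and the lowest young value at 246.3 CPM.

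The 15 members with an unadjusted p of at least 0.05 in both comparisons and in the test of their difference, Srsf7, Srsf10, Srsf11, Hnrnpa0, Hnrnpab, Hnrnpc, Hnrnpd, Hnrnpdl, Hnrnph2, Hnrnph3, Hnrnpk, Hnrnpl, Hnrnpll, Hnrnpr and Hnrnpul1, had log2 fold changes in aging from -0.12 for Hnrnpll to 0.06 for Hnrnpab, 9 below and 6 above 0, with no edgeR adjusted p under 0.134. For 23 of the 24 members not called, the interval of 2 standard errors stayed within 0.25 on either side of 0, Srsf12 being the exception. The falls that were called were themselves of 0.15 to 0.25 on the log2 scale, so this bound leaves room for falls of that size. The interval ran from -0.24 to -0.04 for Srsf4 and from -0.24 to 0.02 for Srsf11. The 7 falls held when any single library was left out and with every other scaling and count filter tried and with DESeq2. In the table of log2(FPKM + 1) tested with limma, Hnrnph1 (adjusted p 0.222), Hnrnpm (adjusted p 0.0886) and Srsf1 (adjusted p 0.134) were not called. Some of these genes overlap others, and whether reads were counted by strand is not stated. Hnrnpm shares 14.7% of its exonic bases with March2 on the same strand, and March2 had a log2 fold change of 0.0013. Hnrnpu shares 6.93% with Cox20 on the opposite strand, which was at -0.11. Hnrnpul2 shares 5.07% with AC129217.1 on the same strand, which is not in the count table. Among members not called, the largest shares were 43.0% for Srsf4 with Gm12992 and 29.1% for Hnrnpab with Phykpl, both on the opposite strand.

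The ALS comparison asked the same of SOD1-G93A against control mice. Here 3 members rose, Hnrnpf, Srsf5 and Srsf9, and 1 fell, Srsf12. By comparison, 18.4% of 14386 tested genes were higher and 15.5% lower. At an unadjusted p under 0.05, 7 members were higher and 2 were lower, against 23.4% and 21.7% of all genes, and again none passed the fold threshold of the study, which 9.7% of genes did. The median log2 fold change of the 31 members was 0.09, against 0.0031 over all genes, and 24 members lay above 0. In 10 members every SOD1-G93A library was above every control library, against 25.7% of genes, and in 2 every SOD1-G93A library was below, against 24.7%.

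Hnrnpf (chr6:117900324-117925622), the H/F protein that binds G-runs and promotes or blocks nearby exons, was at 81.5, 85.8 and 90.1 CPM in the control libraries and at 118, 142 and 153 CPM in the SOD1-G93A libraries. The groups were far apart and the low-microglia SOD1-G93A library was the lowest of its group. Hnrnpf rose 1.61-fold (log2 fold change 0.68, SE 0.11, edgeR adjusted p 0.00258), and its call held in every alternative and with any library left out. 2 unconfirmed gene models on the opposite strand, which are not in the count table, cover 13.5% and 13.0% of its exonic bases. Its relatives Hnrnph1 at -0.02, Hnrnph2 at -0.03 and Hnrnph3 at 0.07 did not pass.

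3 SR genes were called. Srsf5 (chr12:80945504-80950507), a classical SR protein, stood at 253, 258 and 261 CPM in control and at 299, 306 and 321 CPM in SOD1-G93A mice. The groups did not overlap (log2 fold change 0.26, SE 0.08, edgeR adjusted p 0.0350). Srsf9 (chr5:115327177-115333080), a close relative of Srsf1, was at 22.5, 22.6 and 23.6 CPM and at 25.9, 28.7 and 32.8 CPM. Controls were tightly grouped and SOD1-G93A values spread above them (log2 fold change 0.35, SE 0.11, edgeR adjusted p 0.0423). Srsf12 (chr4:33208991-33233340), which opposes other SR proteins, was at 16.4, 16.8 and 18.7 CPM and at 10.3, 11.1 and 14.6 CPM, the low-microglia library again being closest to controls. It fell by 0.53 on the log2 scale (SE 0.16, edgeR adjusted p 0.0313). The 3 SR calls depended on the processing and on which libraries entered. Srsf9 was not called with DESeq2, in a joint fit of all libraries or without a count filter (adjusted p up to 0.0842), Srsf5 was not called without a filter or in the log2(FPKM + 1) table (adjusted p up to 0.162), and Srsf12 was not called in that table (adjusted p 0.0931). Leaving out any 1 of the 3 controls, or of the 2 SOD1-G93A libraries other than the low-microglia one, left Hnrnpf as the only member called. In each of those fits fewer of all genes were called as well. At least 11.3% were higher and 4.92% to 9.44% lower, against 18.4% and 15.5% with all libraries. Without the low-microglia SOD1-G93A library 7 members were higher (Hnrnpa1, Hnrnpab, Hnrnpf, Srsf2, Srsf5, Srsf6 and Srsf9). In that fit 3 were lower (Hnrnpd, Hnrnpul2 and Srsf12), and of all genes 23.8% were higher and 21.7% lower.

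**Figure D4:**
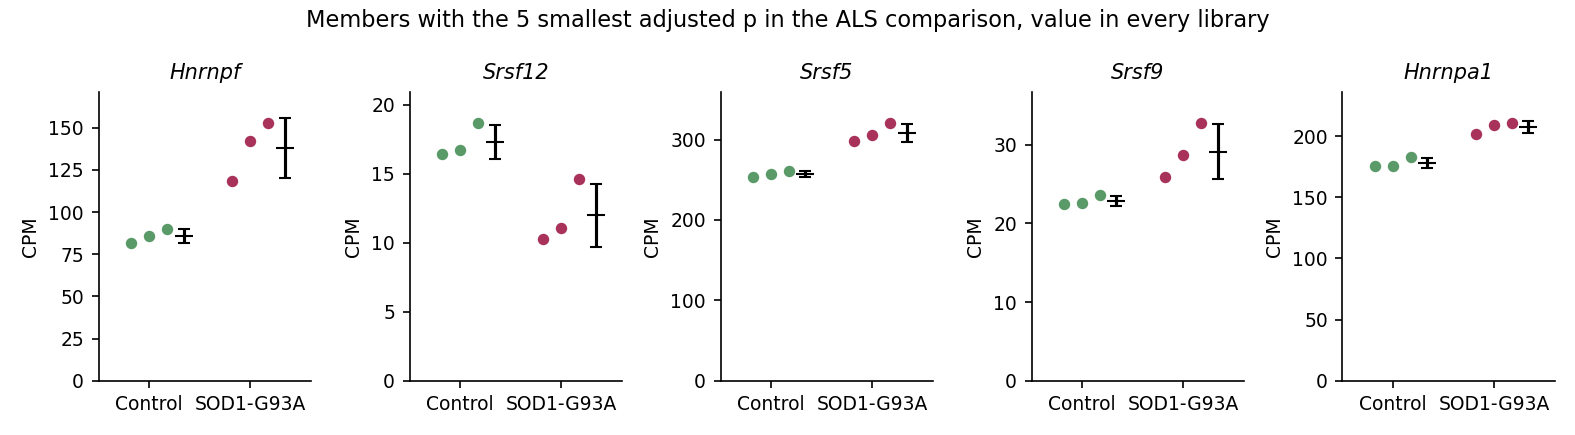
CPM in every library of the 5 members with the smallest adjusted p in the ALS comparison, in control (n = 3) and SOD1-G93A (n = 3) mice, with bars for the mean ± SD. The groups do not overlap in any of the 5, and Hnrnpf goes from at most 90.1 CPM in control to at least 118 CPM in SOD1-G93A libraries.

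Just outside the threshold, Hnrnpa1, whose protein shuttles to the cytoplasm and enters stress granules, was at 175, 176 and 183 CPM in control and at 201, 209 and 211 CPM in SOD1-G93A mice. All 3 SOD1-G93A values were higher (log2 fold change 0.22, SE 0.08, edgeR adjusted p 0.0589). The low-microglia SOD1-G93A library had the highest of them. Srsf2 was at 0.23 (edgeR adjusted p 0.0603), Srsf6 at 0.19 (0.0978 by the same test) and Srsf3 at 0.18 (0.107 by the same test). Hnrnpul2 stood at 245, 255 and 271 CPM in control and at 216, 218 and 233 CPM in SOD1-G93A mice, with no overlap (log2 fold change -0.21, SE 0.09, edgeR adjusted p 0.0866). Of the other genes lower with age, Hnrnpu was at 439, 440 and 442 CPM and at 463, 469 and 473 CPM, higher in all 3 SOD1-G93A libraries but by a small amount (log2 fold change 0.09, edgeR adjusted p 0.425). Hnrnpa2b1 was at 443, 493 and 494 CPM and at 519, 524 and 576 CPM, also without overlap (log2 fold change 0.18, edgeR adjusted p 0.172). Hnrnpm at 0.04, Hnrnpa3 at 0.03, Hnrnph1 at -0.02 and Srsf1 at 0.09 were near 0, and Srsf4 was at 0.09.

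The same 15 members as in aging, Hnrnph2 and Hnrnph3 among them, had log2 fold changes in ALS from -0.21 for Hnrnpd to 0.19 for Hnrnpdl, 4 below and 11 above 0, with no edgeR adjusted p under 0.113. Hnrnpd, which binds AU-rich elements and speeds mRNA decay, was at 155, 157 and 159 CPM in control and at 124, 126 and 158 CPM in SOD1-G93A mice. Its high value was that of the low-microglia library, the other 2 being below every control. With 3 libraries a group the intervals were wider than in aging. For 10 of the 27 members not called they stayed within 0.25 of 0 and for all 27 within 0.5.

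In the main fits no member was called in both comparisons. Hnrnpul2 was lower in both with DESeq2 and in the joint fit of all libraries. In the log2(FPKM + 1) table Srsf2 was higher in both, and Hnrnpa2b1 and Hnrnpu were lower in aging and higher in ALS. Without the low-microglia old library Hnrnpf was higher and Srsf12 lower in aging as well. In that fit 15.9% of all genes were higher and 16.0% lower, against 13.5% and 12.9% with all libraries. The difference between the comparisons was tested directly by fitting the 22 libraries together in edgeR with a term for the difference of the changes. 5 members changed more positively in ALS than in aging and none more negatively, where 11.6% of all genes were more positive and 14.2% more negative. For Hnrnpf the change in ALS exceeded that in aging by 0.55 (SE 0.11, edgeR adjusted p 0.000864), on a rise in ALS. For Hnrnpa2b1 it exceeded it by 0.37 (SE 0.09, edgeR adjusted p 0.00459) and for Hnrnpu by 0.29 (SE 0.09, edgeR adjusted p 0.0159), both on a fall in aging. For Srsf6 the difference was 0.25 (SE 0.08, edgeR adjusted p 0.0168) and for Srsf5 0.27 (SE 0.10, edgeR adjusted p 0.0404). The SR gene Srsf6 was called in neither comparison alone. With each of the 22 libraries left out in turn, the difference of Srsf5 was called in 10 fits (adjusted p up to 0.108) and that of Srsf6 in 21, the exception being the fit without 1 control (adjusted p 0.0513). Without a count filter neither was called (adjusted p 0.0845 for Srsf5 and 0.0505 for Srsf6). Of the 31 differences 27 were positive, with a median of 0.16 against -0.0012 over all genes. Srsf12, Hnrnpd, Hnrnpul2 and Hnrnph2 were the 4 with a negative difference, none of them called with all libraries. Without the low-microglia SOD1-G93A library Hnrnpd was called more negative, at -0.33 (edgeR adjusted p 0.0186) against -0.20 with it. Kit, sex composition, age of the reference mice and experiment cannot be told apart in this contrast.

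**Figure D5:**
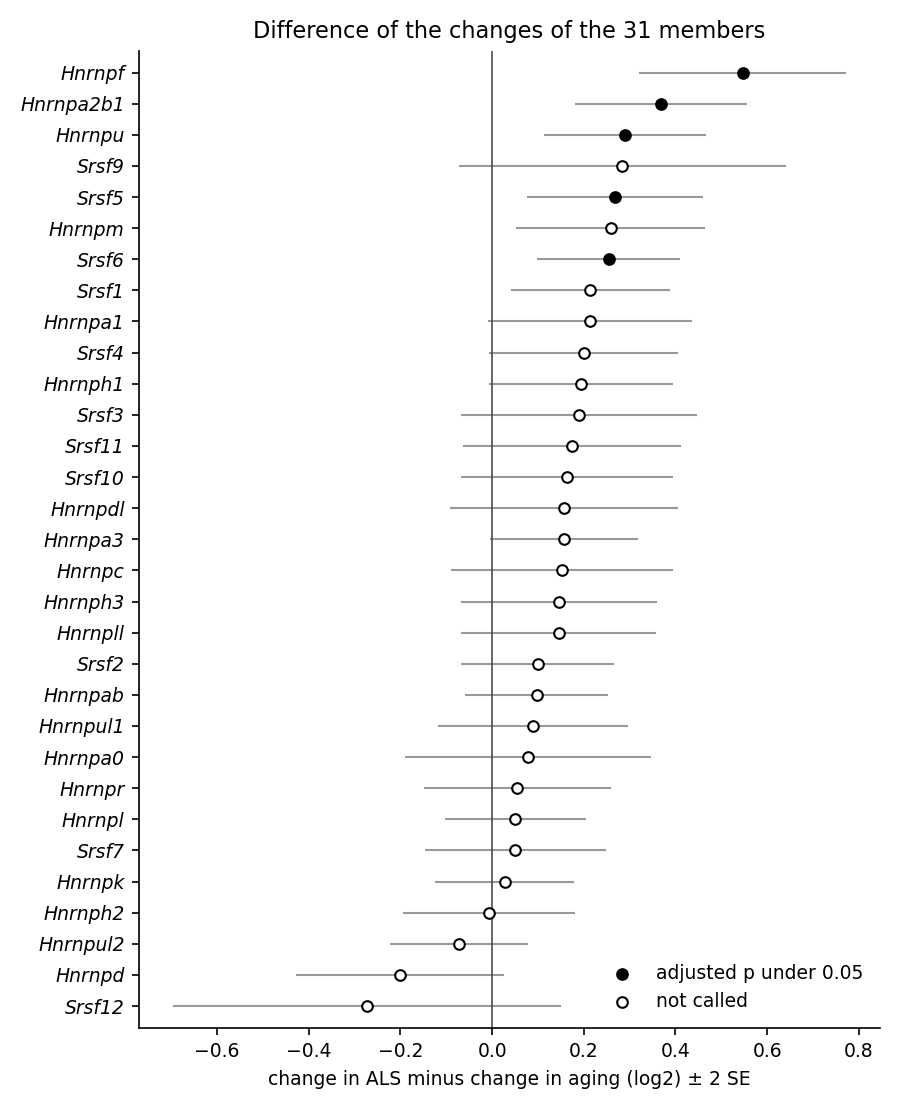
Change in ALS minus change in aging for each of the 31 members on the log2 scale, with bars of 2 standard errors and filled points for an edgeR adjusted p under 0.05. The points for 27 members lie right of 0 and the 5 filled ones run from 0.25 for Srsf6 to 0.55 for Hnrnpf.

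Related genes outside the families were read from 6 lists, each described by its counts of calls. Over all genes tested, 13.5% rose and 12.9% fell in aging, and 18.4% rose and 15.5% fell in ALS. Among 25 SR-related proteins, which carry arginine- and serine-rich stretches without belonging to the classical family, 13 (52.0%) fell in old mice and none rose, with a median log2 fold change of -0.17. They included Nktr (-0.37, edgeR adjusted p 0.000138), Tra2a, which activates exons with the SR proteins (-0.35, edgeR adjusted p 0.000449), the large splicing coactivator Srrm2 (-0.28, edgeR adjusted p 0.00774) and Rsrp1 (-0.21, edgeR adjusted p 0.0238). In SOD1-G93A mice only 1 of the 25 rose, Rsrp1, from 365 to 508 CPM (log2 fold change 0.48, edgeR adjusted p 0.00748), and 1 fell. For Tra2a and Rsrp1 the changes differed between the comparisons by 0.53 and 0.66 (edgeR adjusted p 0.00347 and 0.000467).

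Of 27 hnRNP-like proteins, 4 rose (14.8%) and 6 fell (22.2%) in aging and 7 rose (25.9%) and 1 fell (3.7%) in ALS. Ptbp1, the polypyrimidine tract protein that represses neuronal exons and is low in neurons, rose in old mice from 33.0 to 46.0 CPM (log2 fold change 0.48, SE 0.06, edgeR adjusted p 3.02e-06) and in SOD1-G93A mice from 36.4 to 72.3 CPM (log2 fold change 0.99, SE 0.14, edgeR adjusted p 0.00145). The cold-inducible Rbm3 rose in both (0.66 and 0.67, edgeR adjusted p 2.19e-05 and 0.0147). Cirbp, another cold-inducible protein, rose in aging (0.50, edgeR adjusted p 4.4e-05) and was at 0.34 in ALS (edgeR adjusted p 0.292). Tardbp, which encodes TDP-43, fell in old mice from 157 to 137 CPM (log2 fold change -0.19, SE 0.04, edgeR adjusted p 0.000861) and was at 209 and 208 CPM in control and SOD1-G93A mice (log2 fold change -0.0085, edgeR adjusted p 0.947).

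Among 13 kinases and transport factors of SR proteins, 3 fell in aging (23.1%), and 1 rose and 1 fell in ALS (7.69% each). The kinase gene Prpf4b fell with age (-0.41, edgeR adjusted p 9.18e-05), as did Srpk2, which phosphorylates SR proteins in the cytoplasm (-0.18, edgeR adjusted p 0.00572). In SOD1-G93A mice Clk4, a nuclear SR protein kinase, rose (0.40, edgeR adjusted p 0.0153) and the nuclear import factor Tnpo2 fell (-0.47, edgeR adjusted p 0.00818). Of 45 core proteins of the spliceosomal snRNPs, the building blocks of the spliceosome, 3 rose (6.67%) and 2 fell (4.44%) in aging and 0 rose and 4 fell (8.89%) in ALS, all below the shares over all genes. Cdc5l fell in aging (-0.28, edgeR adjusted p 0.000176), Snrpg and Lsm3 rose (0.34 and 0.29, edgeR adjusted p 0.0219 and 0.0276), and Snrpn, a snRNP protein of neurons, fell in ALS from 537 to 363 CPM (-0.57, edgeR adjusted p 0.0130).

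Of 21 neuronal and tissue splicing regulators tested, 7 fell (33.3%) and none rose in aging, and 12 fell (57.1%) and 1 rose in ALS, with medians of -0.14 and -0.39. Elavl2, a neuronal RNA-binding protein, fell by 0.23 in aging and by 0.84 in ALS (edgeR adjusted p 0.000855 and 0.00741). Elavl3 (-0.44 and -0.30, edgeR adjusted p 0.000402 and 0.0344), Celf5 (-0.42 and -0.35, edgeR adjusted p 0.000651 and 0.0346) and the microexon regulator Srrm3 (-0.28 and -0.50, edgeR adjusted p 0.00187 and 0.0127) fell in both. These genes are expressed mainly in neurons, and 5 of the 10 neuronal markers fell and 1 rose in aging while 8 fell in ALS. Of 12 exon junction and decay factors, 1 rose (8.33%) and 2 fell (16.7%) in aging, with Eif4a3 higher (0.15, edgeR adjusted p 0.0226) and Smg1 lower (-0.24, edgeR adjusted p 0.00183). In ALS Upf3a rose (0.35, edgeR adjusted p 0.0337).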

How the data were processed

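RNA-seq was read from whole spinal cords of 22 mice. The authors mapped reads to mm10 with STAR, ran RSEM with Ensembl gene models, and deposited its expected counts per gene without scaling between libraries. A second deposited table holds log2 values of FPKM after adding a pseudocount of 1. The expected counts were deposited as whole numbers and used as such. Column names give group and library but no replicate number, so libraries carry a group only. Sex is given for groups and was not a covariate. Symbols, gene types and positions are from GENCODE M21 on GRCm38, which held 21919 of the 21995 genes, and promoters are from RefSeq. Per comparison, genes were kept by filterByExpr (minimum count 10, minimum total 15), scaled by TMM and tested with edgeR 4.0.16 in R 4.3.3, with Benjamini-Hochberg adjustment over all genes. CPM uses TMM library sizes. Alternatives were DESeq2 1.42.0, other scalings and filters, a joint fit, limma 3.58.1 on the log2 table, and leaving out each library. Per-library values are given for members called in a comparison, or for the 5 smallest adjusted p-values where fewer than 5 passed, and at most 4 genes are named per list, by smallest adjusted p. Some values fall outside this rule and were added after they were seen. They are those of Hnrnpul2, Hnrnpu, Hnrnpa2b1 and Hnrnpd in ALS, of Srsf4 and Srsf12 in aging and of Rbfox3 in ALS. Members and lists were chosen with earlier results of these data known. The fitting code was tested on simulated counts. Nothing states whether the mice of a group were littermates, so p-values measure the spread between these libraries. SAMtools 1.3 is named in the submitters' processing notes. Protein sequences were not used here, and 1 result of the gene lists is not reported here.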

Additional observations from a re-analysis of the deposited data

Results flagged for a closer look

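In old mice the Srsf12 value of the low-microglia old library, 18.0 CPM, stood apart from the others, of which the nearest was 13.2 and the lowest 9.27 CPM. This was 1 of 62 combinations of a member and a group of 8 libraries in which one library lay far from the rest, where chance gives about 1 in 20, or 3.1. For 5 members the change in ALS differed from that in aging when both were fitted together in edgeR. Hnrnpf differed by 0.55 (edgeR adjusted p 0.000864), Hnrnpa2b1 by 0.37 (edgeR adjusted p 0.00459), Hnrnpu by 0.29 (edgeR adjusted p 0.0159), Srsf6 by 0.25 (edgeR adjusted p 0.0168) and Srsf5 by 0.27 (edgeR adjusted p 0.0404). Library kit and experiment cannot be told apart in these differences.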

How the results depend on the processing

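In aging the count of members lower was 7 or 8 in all alternatives but the log2(FPKM + 1) table, where 4 were lower (Hnrnpul2, Hnrnpu, Hnrnpa2b1 and Hnrnpa3) and the share lower of all genes was 7.38% in place of 12.9%. The count higher was 1 in that table and with upper-quartile factors, Srsf2 in both (of all genes 9.63% and 16.0% were higher). It was 0 otherwise, where 9.97% to 13.6% of all genes were higher. With a library left out, 7 to 9 were lower and 0 to 1 higher, the 1 being Hnrnpf without the low-microglia old library. In ALS the counts higher and lower were 5 and 1 with library totals only, 1 and 1 without a filter, 3 and 2 with DESeq2 (Hnrnpa1, Hnrnpf and Srsf5 higher), 3 and 3 in the joint fit (Hnrnpf, Srsf2 and Srsf5 higher), so without Srsf9 in either, and 7 and 0 in the log2(FPKM + 1) table. The shares of all genes higher and lower in these 5 were 20.4% and 12%, 14.4% and 12.3%, 14.2% and 12.6%, 20.4% and 22.9%, and 18.5% and 9.8%. With a library left out, 1 to 7 were higher and 0 to 3 lower, the 7 and 3 coming without the low-microglia SOD1-G93A library, while of all genes 11.3% to 23.8% were higher and 4.92% to 21.7% lower. Members with a different change numbered 9 with library totals only (of all genes 14.5% more positive and 9.87% more negative) and 3 without a filter (7.58% and 11.5%), and from 3 (without 1 control) to 8 (without the low-microglia old library) with a library left out, with Hnrnpf, Hnrnpa2b1 and Hnrnpu called each time. Over the fits with a library left out, 7.36% to 15.1% of all genes were more positive and 8.94% to 18.6% more negative. The share more positive was 10.1% in the fit with 3 members and 14.5% in that with 8. The sign turned under at least 1 alternative for 8 members in aging and 5 in ALS, none of them called in the main fit of that comparison. In aging these were Hnrnpa0 (-0.00087 without a filter, from -0.038 to 0.044 with a library left out), Hnrnpa1 (0.0032 with upper-quartile factors, from -0.055 to 0.0080), Hnrnpdl (-0.0019 without a filter, -0.0063 in the log2(FPKM + 1) table, from -0.037 to 0.041), Srsf9 (from -0.017 to 0.10), Hnrnpk (from -0.0029 to 0.036), and in the log2(FPKM + 1) table Srsf10 (0.030), Hnrnpl (-0.0097) and Hnrnpr (0.048). In ALS they were Hnrnph1, Hnrnph2, Hnrnpr and Srsf7, at 0.025, 0.012, 0.025 and 0.036 with library totals only, at 0.16, 0.019, 0.12 and 0.045 in the log2(FPKM + 1) table and from -0.084 to 0.056, -0.050 to 0.0064, -0.080 to 0.022 and -0.058 to 0.039 with a library left out, Srsf7 also at 0.0031 with upper-quartile factors and 0.0046 with 10 counts in every library, and Hnrnpm from -0.0036 to 0.061. Of the 8 members in aging, only Hnrnpr was called in an alternative, lower without 1 old library (edgeR adjusted p 0.0436). Among the differences, those of Hnrnph2, Hnrnpk and Hnrnpr turned sign. The cause was not tested. Of all genes called, the share higher moved from 51.1% to 60.4% with upper-quartile factors in aging, from 54.2% to 63.0% with library totals only and 65.4% in the log2(FPKM + 1) table in ALS, where it was 47.2% in the joint fit and 52.3% to 69.6% with a library left out, and from 44.9% to 59.4% with library totals only for the difference. No paired analysis was possible because the columns carry no replicate numbers. Depth limits Srsf12 most, at 63 counts in its lowest library.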

Other observations

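The 2 deposited tables allow expected counts to be divided by FPKM, which gives a relative transcript length for each gene and library. It was scaled here to a median of 1 over genes with at least 50 counts and 2 FPKM in every library, a description added after the results were seen and given with no test. In ALS it was lower in every SOD1-G93A library than in any control for 5 members (Hnrnpu, Hnrnpa2b1, Srsf3, Srsf9 and Hnrnpr), against 7.16% of genes, and higher in every one for 3 (Srsf5, Srsf11 and Hnrnpab), against 6.28%. It was lower for Hnrnpu (from 0.903 to 0.982 against 1.09 to 1.14), Hnrnpa2b1 (from 0.521 to 0.548 against 0.556 to 0.564) and Srsf3 (from 0.692 to 0.721 against 0.735 to 0.793). These 3 are among the members called higher in the log2(FPKM + 1) table (adjusted p 0.0130 for Hnrnpu, 0.0352 for Hnrnpa2b1 and 0.0146 for Srsf3, limma) and not in the counts, where the log2 fold changes were 0.09, 0.18 and 0.18. For Srsf2 and Hnrnpa1, called higher in that table as well, the 2 groups overlapped. Srsf9 (from 0.396 to 0.406 against 0.417 to 0.452) was called higher in both tables, and Srsf5 (from 0.806 to 0.843 against 0.716 to 0.766) in the counts only. In aging the groups overlapped for all 31 members, as they did for nearly all genes (0.0205% lower and 0.0103% higher without overlap). Which transcripts differ was not tested.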
